A study of Mus musculus with 15 samples.

Results

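The genes described here are 49 genes of DNA replication and cell division, chosen by symbol out of 19938 genes that the arrays measured. All 49 had a probe set annotated to that symbol alone. They fall into 21 replication genes (15 for origin licensing and the helicase, 3 for DNA synthesis, 3 for nucleotide supply), 10 cyclins, kinases and E2F factors of the G1 and S phases, 17 genes of mitosis and the checkpoint kinase gene Chek1. Their signal was followed from the common dendritic cell progenitor (CDP), a bone marrow cell that gives rise to dendritic cells, to a later cell that has switched on a Zbtb46-GFP reporter and carries an intermediate level of c-Kit (called GFP+ cells below). Zbtb46 is a transcription factor of the classical dendritic cell lineage.

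Cells were sorted from mouse bone marrow in 6 groups. WT CDPs and WT GFP+ cells came from Zbtb46-GFP chimeric mice. Id2 KO cells of both stages, which lack an inhibitor of E-protein transcription factors, came from Id2 KO Zbtb46-GFP chimeric mice. Batf3 KO cells of both stages, which lack a bZIP factor of the cDC1 subset, came from Batf3 KO mice that carry the reporter and are not labelled as chimeric, so that host and Batf3 genotype cannot be told apart. All groups carry the reporter, and the labels give no age and do not say whether replicates were separate animals, so the p-values measure the spread between arrays, which may be technical. Each array is 1 sample of RNA from many cells, so that fewer dividing cells and less of a transcript in each cell cannot be told apart.

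DNA is copied in S phase and chromosomes are separated in mitosis. In G1, the origin recognition complex with Cdc6 and Cdt1 loads the Mcm2 to Mcm7 helicase on DNA, and cyclin D with Cdk4 or Cdk6, then cyclin E with Cdk2, releases E2F factors that switch on replication genes. Genes of mitosis peak later, under Foxm1, Mybl2 and the MuvB complex, which binds the promoter element called CHR. Both sets are commonly read as signs of proliferation, so the 2 sets were set side by side.

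The promoters of the replication and mitosis genes differed in how often they held 2 elements, and 8 of them are shown. Each replication gene shown holds an E2F motif, as 8 of 16 replication promoters did. Each mitosis gene shown holds a CHR, as 11 of 14 mitosis promoters did. A link between these elements and the values that follow was not tested. Each line runs 5′ to 3′ on the gene's own strand and ends before the annotated transcript start. Capitals mark the motifs searched on both strands: an E2F site (TTGGCGC or TTCCCGC, or their reverse complements), a CHR (TTTGAA or its reverse complement) and a CCAAT box (CCAAT or ATTGG). Each line is only a part of the stretch searched. An E2F site of Cdk1 (bases -178 to -172 from the start) and a CHR of Top2a (-179 to -174) lie upstream of the printed bases. So do CCAAT boxes of both genes. The first 4 are replication genes: Mcm5 and Mcm6, subunits of the helicase, Rrm1, the large subunit of ribonucleotide reductase, and Pola1, the catalytic subunit of DNA polymerase alpha. The last 4 are mitosis genes: Cdk1, the mitotic kinase, Cdc20, an activator of the anaphase-promoting complex, Kif11, a spindle motor, and Top2a, which untangles DNA.
Mcm5: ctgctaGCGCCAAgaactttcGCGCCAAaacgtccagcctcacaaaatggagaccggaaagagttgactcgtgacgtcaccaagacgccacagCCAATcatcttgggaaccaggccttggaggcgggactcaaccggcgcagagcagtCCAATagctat
Mcm6: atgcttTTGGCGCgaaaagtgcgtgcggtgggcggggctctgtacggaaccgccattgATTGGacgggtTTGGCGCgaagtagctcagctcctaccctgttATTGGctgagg
Rrm1: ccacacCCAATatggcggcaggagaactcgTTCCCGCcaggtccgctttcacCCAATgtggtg
Pola1: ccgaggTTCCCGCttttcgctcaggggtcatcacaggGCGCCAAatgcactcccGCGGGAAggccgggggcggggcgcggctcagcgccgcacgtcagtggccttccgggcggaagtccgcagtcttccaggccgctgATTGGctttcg
Cdk1: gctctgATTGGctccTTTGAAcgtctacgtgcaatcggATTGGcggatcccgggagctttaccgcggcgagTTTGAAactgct
Cdc20: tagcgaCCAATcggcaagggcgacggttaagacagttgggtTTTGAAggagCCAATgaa
Kif11: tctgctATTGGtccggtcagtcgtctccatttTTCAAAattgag
Top2a: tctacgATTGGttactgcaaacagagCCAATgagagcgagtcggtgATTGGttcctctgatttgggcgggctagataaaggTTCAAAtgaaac

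In RefSeq's GRCm38.p6 these stretches lie at chr8:75109339-75109497 (Mcm5, plus strand), chr1:128359709-128359820 (Mcm6, minus strand), chr7:102441598-102441660 (Rrm1, plus strand), chrX:93632182-93632330 (Pola1, minus strand), chr10:69352916-69352998 (Cdk1, minus strand), chr4:118437344-118437402 (Cdc20, minus strand), chr19:37376331-37376374 (Kif11, plus strand) and chr11:99024201-99024293 (Top2a, minus strand). A promoter window of 300 bases, from 250 before to 50 after the start, was given for 38 of the 49 genes. Those without one are Mcm4, Gmnn, Gins1, Gins2, Pole, Ccnd1, Ccnd2, Ccne2, Ccna2, Aurkb and Foxm1. The E2F motif was found in 8 of 16 replication promoters and in 2 of 14 mitosis promoters, Cdk1 and Mki67. It was found in 10.7% of the 15614 array genes with a promoter and in 7.79% of all 27025 genes with a promoter. The CHR was found in 2 of 16 replication promoters (12.5%), Mcm2 and Cdc45, and in 11 of 14 mitosis promoters (78.6%). Its share was 17.3% of array genes and 20.2% of all genes with a promoter. The CCAAT box was common to both sets, in 13 of 16 (81.2%) and 12 of 14 (85.7%). Its share was 41.7% of array genes and 41.1% of all genes with a promoter. In 1 of the 38 promoters a CCAAT box overlapped another motif. Median GC content was 57.5% in replication promoters, 58.3% in mitosis promoters and 57.5% in array genes. A match is a string of letters and does not show that a factor binds there.

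**Figure D1:**
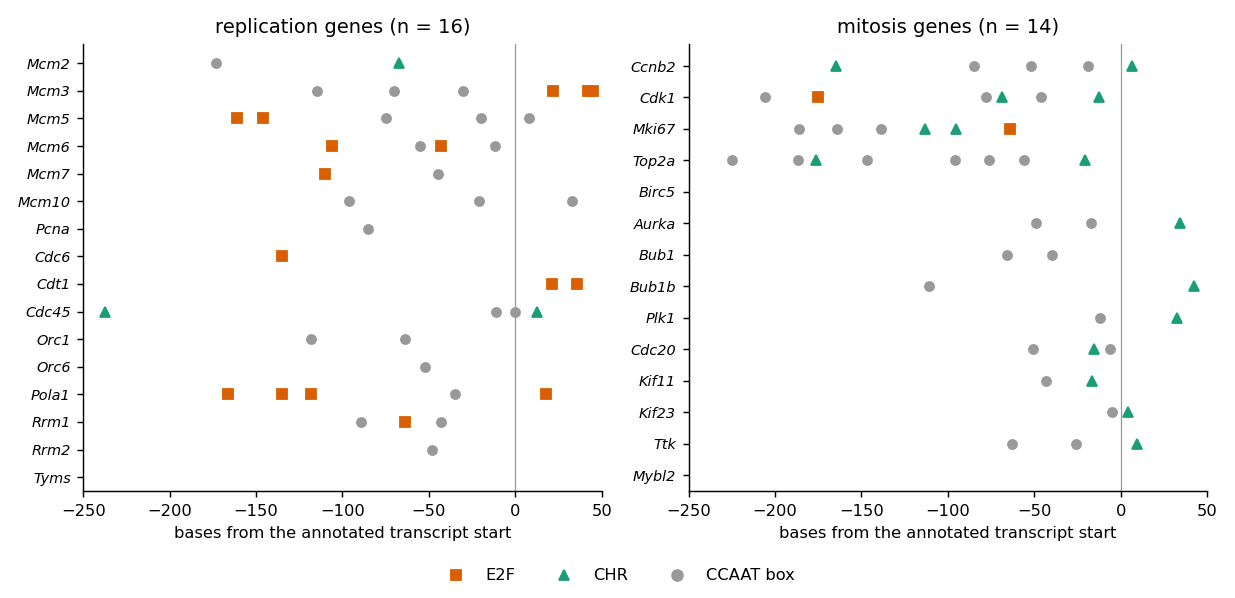
Positions of the E2F motif (squares), the CHR (triangles) and the CCAAT box (circles) in the promoters of 16 replication genes (left) and 14 mitosis genes (right), in bases from the annotated transcript start, with 1 window drawn for each gene. E2F squares lie mostly in the left panel and CHR triangles mostly in the right panel.

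Signal was read on 15 arrays, of which 12 are on one scale with median signals of 100.8 to 112.1: 2 CDP arrays of each genotype, and replicates 2 and 3 of each GFP+ group. Replicate 1 of each GFP+ group stood apart, with median signals of 23.8 to 24.1, and its values are given separately. Values below are log2 signals from the 12 arrays, 2 per group. In the WT, Batf3 rose from 7.12 and 7.15 in CDPs to 9.99 and 9.85 in GFP+ cells, and in the Batf3 KO GFP+ cells it was 6.89 and 7.32. Id2 was 11.999 and 11.47 in WT GFP+ cells and 8.39 and 8.82 in Id2 KO GFP+ cells. Whether either probe set lies in the deleted part was not analysed here. Of 6 markers fixed for the GFP+ stage (Zbtb46, Id2, Batf3, Cd74, H2-Aa, Itgax), 6 rose in the WT step, and of 6 markers fixed for CDPs (Flt3, Csf1r, Kit, Cd34, Mpo, Irf8) 3 fell and 1 rose. However, Zbtb46 itself was 5.95 to 6.08 in the KO GFP+ arrays, within or near the 5.68 to 6.07 of the CDP arrays. Xist was 11.93 to 12.42 on the WT arrays and 5.06 to 5.71 on the KO arrays, so that sex pattern and genotype cannot be told apart on these 12. On the replicate 1 arrays it was 10.53 in the WT, 11.02 in the Batf3 KO and 3.66 in the Id2 KO, so the Batf3 KO array there was like the WT one and unlike the other Batf3 KO arrays. Pola1 is the X-linked gene among the 49.

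From CDPs to GFP+ cells in the WT, most genes of origin licensing, the helicase and DNA synthesis fell, while most genes of mitosis did not pass the test. Of 21 replication genes, 16 fell and 0 rose, with a median log2 change of -0.91 and a range of -1.66 to -0.31. Of 17 mitosis genes, 3 (17.6%) fell, namely Cdc20, Ttk and Mybl2, and 0 rose, with a median of -0.29 and a range of -0.91 to -0.02. All 17 were thus fitted below 0. In limma 20 replication genes and 7 mitosis genes had an unadjusted p under 0.05, as did 4502 of all 19938 genes. The cell cycle kinase gene Cdk6 and the cyclin gene Ccnd2 fell most of all 49. A gene is called changed here at an adjusted p under 0.05 in limma, adjusted by Benjamini-Hochberg over all 19938 genes. By that rule 6.38% of all genes fell and 4.71% rose, 11.1% in all, and the median over all genes was 0.03. In a refit on the 9969 genes at or above the median mean signal, which include all 49, 13.7% fell and 8.49% rose. The median over those genes was -0.13. Without WT CDP replicate 1, fewer genes of both classes and a smaller share of all genes were called lower. The mitosis count was 1 with WT GFP+ replicate 3 left out and 5 with replicate 2 left out. With each array centred on its 75th percentile, the median over all genes moved by 0.13, to 0.16. All genes then split into 5.78% higher and 4.30% lower, and the counts were 12 replication genes and 1 mitosis gene lower.

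The same step was smaller for replication genes in both knockouts, in median. In the Batf3 KO, 11 of 21 replication genes fell (median -0.67) and 0 of 17 mitosis genes did (median -0.22; limma, 3 at an unadjusted p under 0.05), where 3.32% of all genes fell and 3.87% rose. Of all 19938 genes, 3596 had such an unadjusted p. The replication count dropped without CDP replicate 1, CDP replicate 2 or GFP+ replicate 3 of that genotype. So did the share of all genes called lower. The replication count rose to 17, with 2 mitosis genes, with a block for arrays of higher and lower 75th percentile. With that block 9.99% of all genes fell. In the Id2 KO, 5 of 21 replication genes fell (median -0.43) and 0 of 17 mitosis genes did (median 0.08; limma, 1 at an unadjusted p under 0.05), where 2.98% of all genes fell and 3.84% rose. Such an unadjusted p was found for 3403 of all 19938 genes. In the fit of 15 arrays that gives the arrays standing apart their own term, the median of mitosis genes in the Id2 KO was -0.09. In the 12 arrays the replication count dropped without Id2 KO CDP replicate 1, GFP+ replicate 2 or GFP+ replicate 3. So did the share of all genes called lower. The replication count rose to 10 in that fit of 15 arrays and to 12 with the block for the 75th percentile. Of all genes, 5.06% and 8.57% then fell. The count of 5 thus depends on the setting in both directions, as does the share of all genes. No gene of the 49 passed the test of a difference in step between a knockout and the WT, given further on.

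Averaged over the 3 genotypes, which brings all 12 arrays to bear, 20 of 21 replication genes fell, with a median of -0.65. The exception was Rrm2, the small subunit of ribonucleotide reductase, at -0.14 (SE 0.10, 95% interval -0.38 to 0.09). Of 17 mitosis genes, 5 fell (Aurka, Bub1, Cdc20, Ttk and Mybl2) and the median was -0.17. By the same rule 14.1% of all genes fell and 9.23% rose. In the refit on the 9969 genes at or above the median mean signal, 27.4% fell and 15.2% rose, with a median of -0.08. The precision was alike, with a median SE of 0.10 in each class. The 95% interval of 15 of the 17 mitosis genes lay wholly above the median change of the replication genes. In the single steps, set against the replication median of that step, the count was 10 in the WT, 10 in the Batf3 KO and 11 in the Id2 KO. The median SE there was 0.17 for replication and 0.18 for mitosis genes. The mitosis count was 3 without any one of WT CDP replicate 1, WT GFP+ replicate 3, Batf3 KO CDP replicate 1, Batf3 KO GFP+ replicate 3, Id2 KO CDP replicate 1 or Id2 KO GFP+ replicate 3. Centred on the 75th percentile, 18 replication and 4 mitosis genes fell, while all genes split into 10.6% lower and 10.3% higher.

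**Figure D2:**
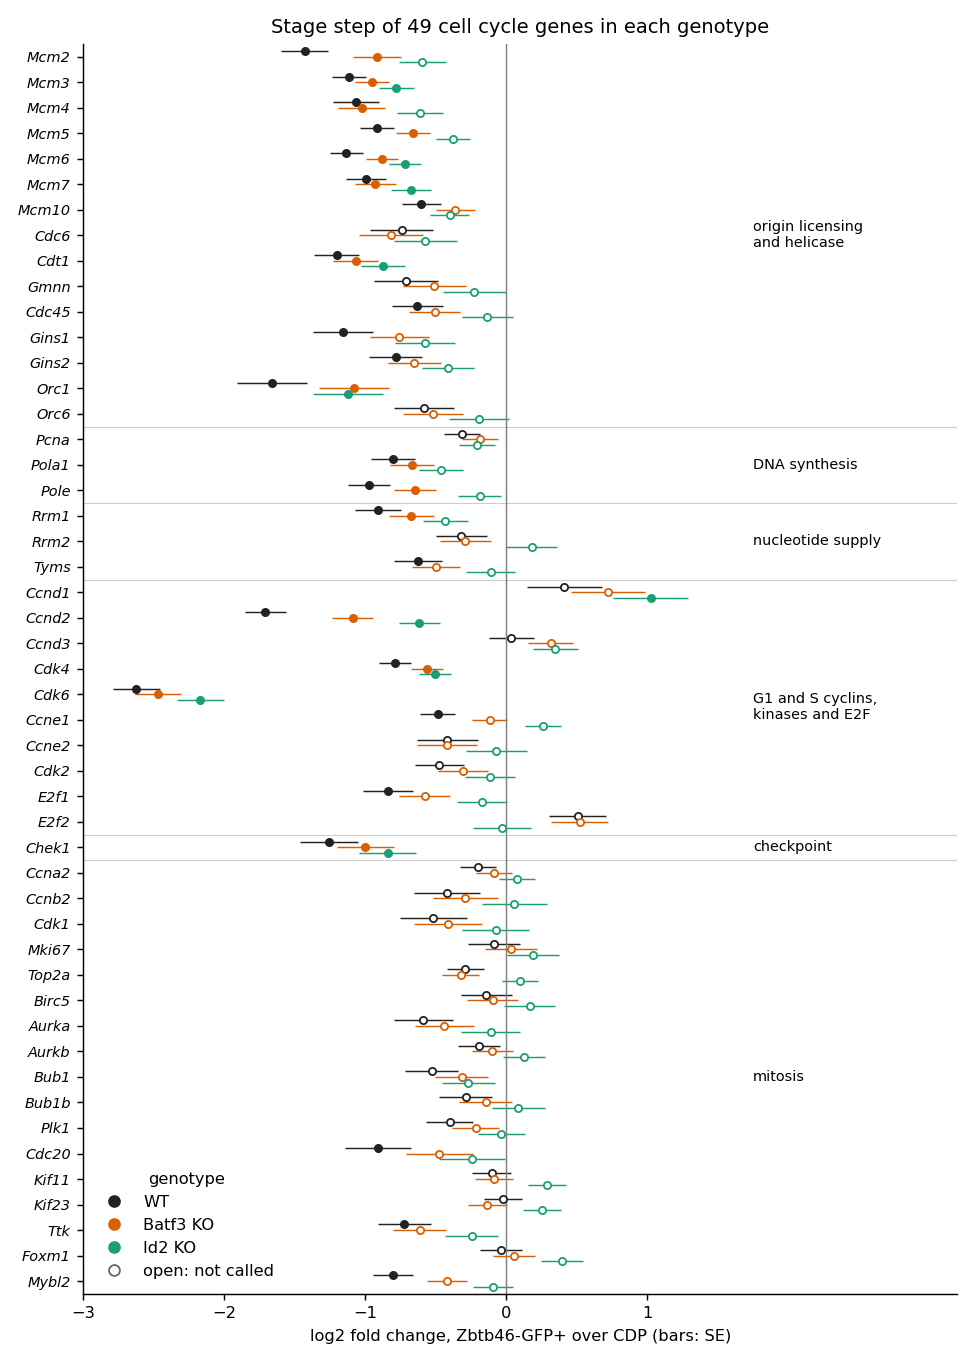
Log2 change from CDP to Zbtb46-GFP+ cells (horizontal axis) for each of the 49 genes (rows), by genotype, with bars for the SE, filled points for genes past an adjusted p of 0.05 and open points for the others. Replication genes lie left of 0 in the WT and Batf3 KO, mitosis genes lie closer to 0, and Cdk6 lies farthest left, between -2.62 and -2.17.

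The arrays themselves show the separation without a test. In the WT, both GFP+ arrays lay below both CDP arrays for 21 of 21 replication genes and 9 of 17 mitosis genes, against 22.9% of all genes. The counts were 20 and 10 in the Batf3 KO, against 23.3% of all genes. Mitosis genes thus also lay below more often than all genes in these genotypes, though less often than replication genes. In the Id2 KO the counts were 17 and 3, against 21.4%. There 7 mitosis genes had both GFP+ arrays above both CDP arrays, against 20.3%. Taking all 6 GFP+ arrays against all 6 CDP arrays, 15 of 21 replication genes lay wholly below, and 1 of 17 mitosis genes (Mybl2) did, against 9.21% of all genes. Ccnd2, Cdk4, Cdk6 and Chek1 also lay wholly below.

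Class means by array gave the same picture. After subtracting each gene's mean over the 12 arrays, the 21 replication genes averaged 0.25 to 0.44 on the CDP arrays. On the GFP+ arrays they averaged -0.57 and -0.53 in the WT, -0.20 and -0.49 without Batf3, and -0.17 and -0.08 without Id2. The 17 mitosis genes averaged -0.03 to 0.19 on the CDP arrays, -0.10 and -0.47 in WT GFP+ cells, -0.06 and -0.24 in Batf3 KO GFP+ cells, and 0.17 and 0.13 in Id2 KO GFP+ cells. For mitosis genes WT GFP+ replicate 3 was the lowest array, and the Id2 KO GFP+ arrays lay within the range of the CDP arrays. The gap within an array, replication minus mitosis, does not move when all log2 values of an array shift by the same amount. A difference in spread between arrays can still move the gap. The gap was 0.22 to 0.28 on the 6 CDP arrays and -0.46 to -0.06 on the 6 GFP+ arrays, so the stages did not overlap in it. Both ends of the GFP+ range were WT arrays, replicate 2 (-0.46) and replicate 3 (-0.06).

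**Figure D3:**
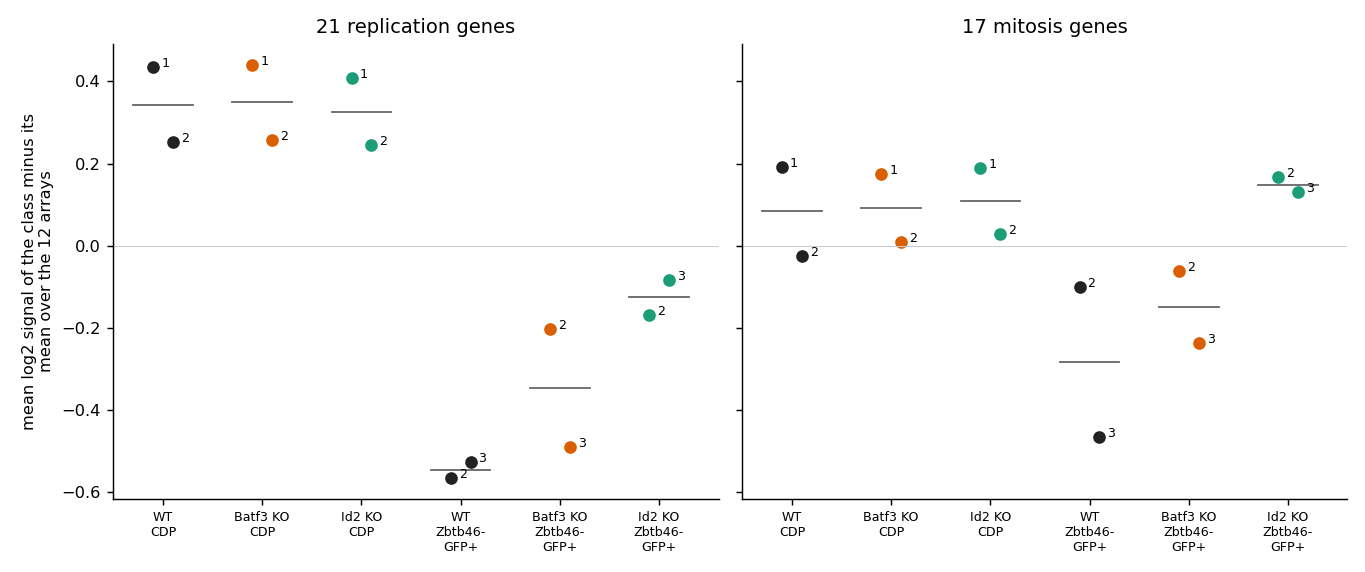
Mean log2 signal of the 21 replication genes (left) and the 17 mitosis genes (right) on each of the 12 arrays, after subtracting each gene's mean over the arrays, with replicate numbers beside the points and a bar at each group's mean. Replication means lie at 0.25 or more on every CDP array and at -0.08 or less on every GFP+ array, whereas mitosis means overlap between stages.

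The origin recognition and licensing genes are the first to act. Orc1, the largest subunit of the origin recognition complex (probe set 10506822, chromosome 4), was at 8.05 and 7.66 in WT CDPs against 5.95 and 6.44 in WT GFP+ cells, 7.86 and 7.54 against 6.82 and 6.43 in the Batf3 KO, and 8.27 and 7.63 against 6.77 and 6.88 in the Id2 KO. All 6 GFP+ arrays lay below all 6 CDP arrays, and Orc1 fell 3.16-fold in the WT (log2 change -1.66, SE 0.25, adjusted p = 0.00132). It fell also in the Batf3 KO (-1.08, adjusted p = 0.0232) as well as the Id2 KO (-1.12, adjusted p = 0.0199). The Batf3 KO call was lost without its CDP replicate 1 (0.194), CDP replicate 2 (0.0565) or GFP+ replicate 3 (0.194), and the Id2 KO call without its CDP replicate 1 (0.163), GFP+ replicate 2 (0.142) or GFP+ replicate 3 (0.0967). Orc6, the smallest subunit, was at 9.59 and 9.25 in WT CDPs against 8.9997 and 8.66 in WT GFP+ cells, 9.55 and 9.35 against 9.23 and 8.64 in the Batf3 KO, and 9.55 and 9.22 against 9.20 and 9.17 in the Id2 KO. It passed only in the mean step (log2 change -0.43, SE 0.12, adjusted p = 0.0246), and leaving out any of 7 of the arrays took the adjusted p to 0.056 to 0.0734. Cdt1, which with Cdc6 loads the helicase (probe set 10576140), was at 9.48 and 9.24 in WT CDPs against 7.95 and 8.36 in WT GFP+ cells, 9.48 and 9.32 against 8.42 and 8.24 in the Batf3 KO, and 9.35 and 9.34 against 8.40 and 8.54 in the Id2 KO. The stages did not overlap, and Cdt1 fell in the WT (log2 change -1.20, SE 0.16, adjusted p = 6.22e-04), the Batf3 KO (-1.07, adjusted p = 0.00199) as well as the Id2 KO (-0.87, adjusted p = 0.00743, or 0.0817 without Id2 KO GFP+ replicate 2). Cdc6 was at 9.03 and 8.79 in WT CDPs against 8.02 and 8.32 in WT GFP+ cells, 9.02 and 8.76 against 8.44 and 7.70 in the Batf3 KO, and 9.04 and 8.76 against 8.30 and 8.36 in the Id2 KO. It missed the threshold in each genotype and passed in the mean step (log2 change -0.71, SE 0.13, adjusted p = 0.00202). Gmnn, the inhibitor of Cdt1, was at 9.50 and 9.30 in WT CDPs against 9.07 and 8.32 in WT GFP+ cells, 9.51 and 9.50 against 9.12 and 8.86 in the Batf3 KO, and 9.67 and 9.28 against 9.21 and 9.29 in the Id2 KO. Its mean step was -0.48 (adjusted p = 0.0188), with an adjusted p of 0.0516 to 0.0576 without WT CDP replicate 1, Batf3 KO GFP+ replicate 3, Id2 KO CDP replicate 1 or Id2 KO GFP+ replicate 2.

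All 6 subunits of the replicative helicase fell in the WT and in the Batf3 KO. Mcm2 (probe set 10546163, chromosome 6) was at 11.62 and 11.48 in WT CDPs against 9.97 and 10.27 in WT GFP+ cells, 11.75 and 11.41 against 10.79 and 10.54 in the Batf3 KO, and 11.43 and 11.50 against 10.75 and 10.99 in the Id2 KO. WT GFP+ arrays were the lowest, KO GFP+ arrays were intermediate and CDP arrays were highest. Mcm2 fell 2.69-fold in the WT (log2 change -1.43, SE 0.17, adjusted p = 2.73e-04) and by less in the Batf3 KO (-0.92, adjusted p = 0.00685). That last call was lost without Batf3 KO CDP replicate 1 (0.084) or GFP+ replicate 3 (0.0735), and the Id2 KO step of -0.60 did not pass (adjusted p = 0.0605). Mcm3 was at 11.07 and 11.05 in WT CDPs against 9.90 and 9.99 in WT GFP+ cells, 11.25 and 11.04 against 10.19 and 10.20 in the Batf3 KO, and 11.07 and 11.11 against 10.25 and 10.37 in the Id2 KO. It fell in all 3 genotypes, with steps of -1.12, -0.95 and -0.78 on the log2 scale in WT, Batf3 KO and Id2 KO. Mcm4 was at 10.37 and 10.29 in WT CDPs against 9.05 and 9.47 in WT GFP+ cells, 10.57 and 10.35 against 9.58 and 9.30 in the Batf3 KO, and 10.41 and 10.22 against 9.74 and 9.67 in the Id2 KO. Its Id2 KO step of -0.61 was at the threshold (adjusted p = 0.0513). Mcm5 was at 11.01 and 10.995 in WT CDPs against 10.09 and 10.08 in WT GFP+ cells, 11.10 and 10.95 against 10.44 and 10.29 in the Batf3 KO, and 10.89 and 10.98 against 10.50 and 10.61 in the Id2 KO. A fall was called in the WT (log2 change -0.92, SE 0.12, adjusted p = 6.33e-04) and in the Batf3 KO (-0.66), the latter call being lost without Batf3 KO CDP replicate 1 (0.087) or GFP+ replicate 3 (0.079).

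Mcm6, whose promoter above holds 2 E2F motifs, was at 11.24 and 11.19 in WT CDPs against 10.08 and 10.08 in WT GFP+ cells, 11.31 and 11.15 against 10.37 and 10.32 in the Batf3 KO, and 11.21 and 11.27 against 10.49 and 10.56 in the Id2 KO. Replicates were close and the stages well apart, with a step of -1.13 in the WT (SE 0.12, adjusted p = 1.09e-04), -0.88 for Batf3 KO and -0.72 for Id2 KO (adjusted p = 0.00371, or 0.0521 without Id2 KO GFP+ replicate 2). Mcm7 was at 10.85 and 10.84 in WT CDPs against 9.88 and 9.83 in WT GFP+ cells, 11.04 and 10.79 against 10.10 and 9.88 in the Batf3 KO, and 11.06 and 10.81 against 10.22 and 10.29 in the Id2 KO. It fell in all 3 genotypes (-0.99, -0.93 and -0.68), but the Id2 KO call was lost without its CDP replicate 1 (0.127), GFP+ replicate 2 (0.13) or GFP+ replicate 3 (0.0843). Cdc45 and the GINS subunits join the helicase when origins fire, and Mcm10 helps to start it. Mcm10 was at 10.18 and 10.003 in WT CDPs against 9.46 and 9.52 in WT GFP+ cells, 10.20 and 10.04 against 9.90 and 9.61 in the Batf3 KO, and 10.28 and 10.18 against 9.78 and 9.88 in the Id2 KO. It passed in the WT (log2 change -0.60, SE 0.14, adjusted p = 0.0166), a call lost without WT CDP replicate 1 (0.134), WT GFP+ replicate 2 (0.0748) or WT GFP+ replicate 3 (0.0556), and in the mean step (-0.46). Cdc45 was at 10.31 and 10.07 in WT CDPs against 9.53 and 9.59 in WT GFP+ cells, 10.38 and 9.99 against 9.92 and 9.44 in the Batf3 KO, and 10.17 and 10.07 against 9.96 and 10.01 in the Id2 KO. Its WT step of -0.63 was just past the threshold (adjusted p = 0.0482), with an adjusted p of 0.0567 to 0.292 when any of 8 arrays was left out. Gins1 was at 10.30 and 9.93 in WT CDPs against 9.19 and 8.73 in WT GFP+ cells, 10.05 and 9.93 against 9.44 and 9.03 in the Batf3 KO, and 10.36 and 9.94 against 9.57 and 9.57 in the Id2 KO. Its WT step was -1.16 (adjusted p = 0.0046, or 0.0502 without WT CDP replicate 1). Gins2 was at 9.19 and 8.87 in WT CDPs against 8.32 and 8.18 in WT GFP+ cells, 9.19 and 8.95 against 8.54 and 8.30 in the Batf3 KO, and 9.22 and 8.73 against 8.51 and 8.61 in the Id2 KO. Its WT step was -0.79 (adjusted p = 0.0192, or 0.165 without WT CDP replicate 1 and 0.0981 without WT GFP+ replicate 3).

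The polymerase and nucleotide genes changed less evenly. Pola1 was at 9.76 and 9.68 in WT CDPs against 8.72 and 9.12 in WT GFP+ cells, 9.68 and 9.62 against 8.996 and 8.96 in the Batf3 KO, and 9.42 and 9.74 against 9.12 and 9.12 in the Id2 KO. It fell in the WT (log2 change -0.80, SE 0.16, adjusted p = 0.00685, or 0.0538 without WT CDP replicate 1) and in the Batf3 KO (-0.67), a call lost without any one of the 4 Batf3 KO arrays (adjusted p 0.101 to 0.162). Pole, the catalytic subunit of polymerase epsilon, was at 10.89 and 10.83 in WT CDPs against 9.86 and 9.90 in WT GFP+ cells, 10.95 and 10.77 against 10.39 and 10.04 in the Batf3 KO, and 10.63 and 10.75 against 10.37 and 10.63 in the Id2 KO. Pole fell in the WT (log2 change -0.97, SE 0.15, adjusted p = 0.00181) and in the Batf3 KO (-0.65, lost without Batf3 KO CDP replicate 1 at 0.213, CDP replicate 2 at 0.0687 or GFP+ replicate 3 at 0.249), and its Id2 KO step was -0.19. Pcna, the sliding clamp, was at 12.94 and 12.88 in WT CDPs against 12.71 and 12.48 in WT GFP+ cells, 12.84 and 12.93 against 12.71 and 12.69 in the Batf3 KO, and 12.89 and 12.93 against 12.63 and 12.78 in the Id2 KO. It passed only in the mean step (log2 change -0.24, SE 0.07, adjusted p = 0.0374), where leaving out any of 11 arrays took the adjusted p to 0.0542 to 0.114. Rrm1 was at 10.58 and 10.41 in WT CDPs against 9.47 and 9.69 in WT GFP+ cells, 10.51 and 10.36 against 9.93 and 9.59 in the Batf3 KO, and 10.68 and 10.37 against 10.06 and 10.12 in the Id2 KO. It fell in the WT (log2 change -0.91, SE 0.16, adjusted p = 0.00402) and in the Batf3 KO (-0.67), the latter lost without Batf3 KO CDP replicate 1 (0.217), CDP replicate 2 (0.0849), GFP+ replicate 3 (0.267) or either Id2 KO GFP+ array (0.0528). Its partner Rrm2 was at 10.76 and 10.51 in WT CDPs against 10.22 and 10.41 in WT GFP+ cells, 10.74 and 10.51 against 10.52 and 10.14 in the Batf3 KO, and 10.70 and 10.31 against 10.61 and 10.76 in the Id2 KO, with steps of -0.32, -0.29 and 0.18 that did not pass. Tyms, which makes thymidylate, was at 10.84 and 10.47 in WT CDPs against 10.13 and 9.93 in WT GFP+ cells, 10.69 and 10.57 against 10.33 and 9.95 in the Batf3 KO, and 10.68 and 10.47 against 10.48 and 10.45 in the Id2 KO. Its WT step of -0.62 (adjusted p = 0.038) was lost when any of 7 arrays was left out (0.0556 to 0.3), and its mean step was -0.41 (adjusted p = 0.0104).

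Among the G1 genes, the D-type cyclins moved apart while their partner kinases fell. Cdk6 (probe set 10519324, chromosome 5) was at 11.86 and 11.75 in WT CDPs against 9.14 and 9.22 in WT GFP+ cells, 11.68 and 11.59 against 9.36 and 8.97 in the Batf3 KO, and 11.45 and 11.82 against 9.53 and 9.40 in the Id2 KO. It fell 6.16-fold in the WT (log2 change -2.62, SE 0.16, adjusted p = 3.65e-06), 5.54-fold without Batf3 and 4.50-fold without Id2, and the calls held with each array left out in turn. Cdk4 was at 12.81 and 12.77 in WT CDPs against 12.04 and 11.96 in WT GFP+ cells, 12.76 and 12.71 against 12.21 and 12.14 in the Batf3 KO, and 12.80 and 12.76 against 12.23 and 12.32 in the Id2 KO. It fell in all 3 genotypes (-0.79, -0.56 and -0.50), but the Batf3 KO and Id2 KO calls were lost without any one array of that genotype (adjusted p 0.0565 to 0.103 and 0.0684 to 0.186). Ccnd2 (probe set 10548105) was at 12.35 and 12.16 in WT CDPs against 10.68 and 10.41 in WT GFP+ cells, 12.21 and 12.03 against 10.96 and 11.10 in the Batf3 KO, and 12.35 and 12.15 against 11.65 and 11.62 in the Id2 KO. It fell 3.27-fold in the WT (log2 change -1.71, SE 0.15, adjusted p = 2.92e-05), 2.13-fold without Batf3 and 1.54-fold without Id2. The Id2 KO call (adjusted p = 0.0272) was lost without Id2 KO CDP replicate 1 (0.181), GFP+ replicate 2 (0.147) or GFP+ replicate 3 (0.163). Ccnd1 was at 11.24 and 10.85 in WT CDPs against 11.11 and 11.81 in WT GFP+ cells, 11.06 and 10.77 against 11.83 and 11.44 in the Batf3 KO, and 11.60 and 10.97 against 12.36 and 12.27 in the Id2 KO. It was the 1 gene of the 49 to rise (3 rose in the mean step with each array centred): its mean step was 0.72 (SE 0.15, adjusted p = 0.00527), and its Id2 KO step of 1.03 (adjusted p = 0.0428) was lost when any of 5 arrays was left out (0.0568 to 0.229). In the fit of all 15 arrays with no term for the arrays that stand apart, the Ccnd1 changes took the opposite sign, at -0.60 in the mean step and -0.46 in the Id2 KO. Ccnd3 ran from 9.44 to 9.95 and did not pass (mean step 0.23, adjusted p = 0.103).

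Of the other cyclin, kinase, E2F and checkpoint genes, Ccne1, E2f1 and Chek1 fell in the WT. Ccne1, cyclin E1, was at 9.43 and 9.32 in WT CDPs against 8.91 and 8.86 in WT GFP+ cells, 9.26 and 9.25 against 9.26 and 9.01 in the Batf3 KO, and 9.18 and 9.22 against 9.42 and 9.50 in the Id2 KO. GFP+ arrays lay below CDP arrays in the WT, overlapped them in the Batf3 KO and lay above them in the Id2 KO. Its WT step was -0.49 (adjusted p = 0.0288), lost without any of 6 arrays (0.0503 to 0.182), and its Id2 KO step 0.26 did not pass (adjusted p = 0.333). Ccne2 ran from 8.58 to 9.47 and Cdk2 from 10.19 to 10.97, with mean steps of -0.30 (adjusted p = 0.113) and -0.30 (0.0568). E2f1, an activator of replication genes, was at 9.24 and 8.98 in WT CDPs against 8.09 and 8.46 in WT GFP+ cells, 9.24 and 8.96 against 8.68 and 8.37 in the Batf3 KO, and 9.04 and 8.87 against 8.69 and 8.88 in the Id2 KO. The factor fell in the WT (log2 change -0.84, SE 0.18, adjusted p = 0.0114), a call lost without WT CDP replicate 1 (0.103) or WT GFP+ replicate 2 (0.0833), and in the mean step (-0.53). E2f2 ran from 7.54 to 8.45, with a mean step of 0.33 (adjusted p = 0.0666). Chek1, the kinase that answers stalled replication, was at 9.37 and 9.13 in WT CDPs against 7.82 and 8.17 in WT GFP+ cells, 9.39 and 9.16 against 8.54 and 8.01 in the Batf3 KO, and 9.46 and 9.09 against 8.48 and 8.39 in the Id2 KO. It fell in the WT (log2 change -1.26, SE 0.20, adjusted p = 0.00233), the Batf3 KO (-0.999) as well as the Id2 KO (-0.84). The Batf3 KO call was lost without its CDP replicate 1 (0.119) or GFP+ replicate 3 (0.127), and the Id2 KO call without its CDP replicate 1 (0.225), GFP+ replicate 2 (0.141) or GFP+ replicate 3 (0.192).

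Only 5 mitosis genes passed in the WT or mean step. Mybl2, the Myb factor that works with MuvB, was at 9.56 and 9.26 in WT CDPs against 8.74 and 8.48 in WT GFP+ cells, 9.43 and 9.36 against 9.01 and 8.95 in the Batf3 KO, and 9.29 and 9.28 against 9.13 and 9.25 in the Id2 KO. It fell in the WT (log2 change -0.80, SE 0.14, adjusted p = 0.0038) and in the mean step (-0.44). Cdc20 was at 10.61 and 10.29 in WT CDPs against 9.89 and 9.18 in WT GFP+ cells, 10.52 and 10.34 against 10.10 and 9.82 in the Batf3 KO, and 10.75 and 10.31 against 10.38 and 10.20 in the Id2 KO. WT GFP+ replicate 3 was the lowest of the 12, and the WT call (log2 change -0.91, SE 0.23, adjusted p = 0.0291) was lost without it (0.183) or without WT CDP replicate 1 (0.21). Ttk, a spindle checkpoint kinase, was at 9.45 and 9.09 in WT CDPs against 8.71 and 8.39 in WT GFP+ cells, 9.45 and 9.13 against 8.82 and 8.52 in the Batf3 KO, and 9.48 and 9.22 against 9.20 and 9.02 in the Id2 KO. Its WT call (log2 change -0.72, SE 0.19, adjusted p = 0.0307) was lost without WT CDP replicate 1 (0.243) or WT GFP+ replicate 3 (0.17). Aurka, a centrosome kinase, was at 10.32 and 9.99 in WT CDPs against 9.77 and 9.37 in WT GFP+ cells, 10.30 and 10.03 against 9.85 and 9.60 in the Batf3 KO, and 10.47 and 9.99 against 10.24 and 9.99 in the Id2 KO. It passed in the mean step only (log2 change -0.38, SE 0.12, adjusted p = 0.0433), with an adjusted p of 0.0543 to 0.126 when any of 7 arrays was left out. Bub1, another spindle checkpoint kinase, was at 10.27 and 9.81 in WT CDPs against 9.62 and 9.40 in WT GFP+ cells, 10.10 and 9.85 against 9.83 and 9.48 in the Batf3 KO, and 10.28 and 10.04 against 9.97 and 9.81 in the Id2 KO. It too passed in the mean step only (log2 change -0.37, SE 0.11, adjusted p = 0.0298), with an adjusted p of 0.0708 to 0.0928 when any of 6 arrays was left out.

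The remaining 12 mitosis genes passed in no stage step. Mki67, the source of the Ki-67 antigen used to score dividing cells, was at 12.49 and 12.34 in WT CDPs against 12.56 and 12.10 in WT GFP+ cells, 12.26 and 12.44 against 12.22 and 12.55 in the Batf3 KO, and 12.12 and 12.42 against 12.44 and 12.48 in the Id2 KO. The stages overlapped in every genotype but the Id2 KO, and the mean step was 0.05 (95% interval -0.19 to 0.28). Kif11 was at 11.16 and 11.21 in WT CDPs against 11.20 and 10.96 in WT GFP+ cells, 11.17 and 11.07 against 11.14 and 10.92 in the Batf3 KO, and 11.07 and 11.17 against 11.33 and 11.48 in the Id2 KO, with a mean step of 0.03 (-0.14 to 0.21). Kif23, a motor of the cleavage furrow, was close to it at 0.03 (-0.14 to 0.21). Birc5, or survivin, was -0.02 (-0.25 to 0.20), its partner kinase gene Aurkb -0.06 (-0.24 to 0.13) and Foxm1 0.14 (-0.05 to 0.33). These intervals lie above the median step of the replication genes. The other 6 were Ccna2 (-0.07), Bub1b (-0.12), Top2a (-0.17), Plk1 (-0.22), Ccnb2 (-0.22) and Cdk1 (-0.34), with adjusted p from 0.118 to 0.585. Top2a was measured by 2 probe sets of its own and 2 that it shares with other symbols, and Pcna by 2 of its own.

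**Figure D4:**
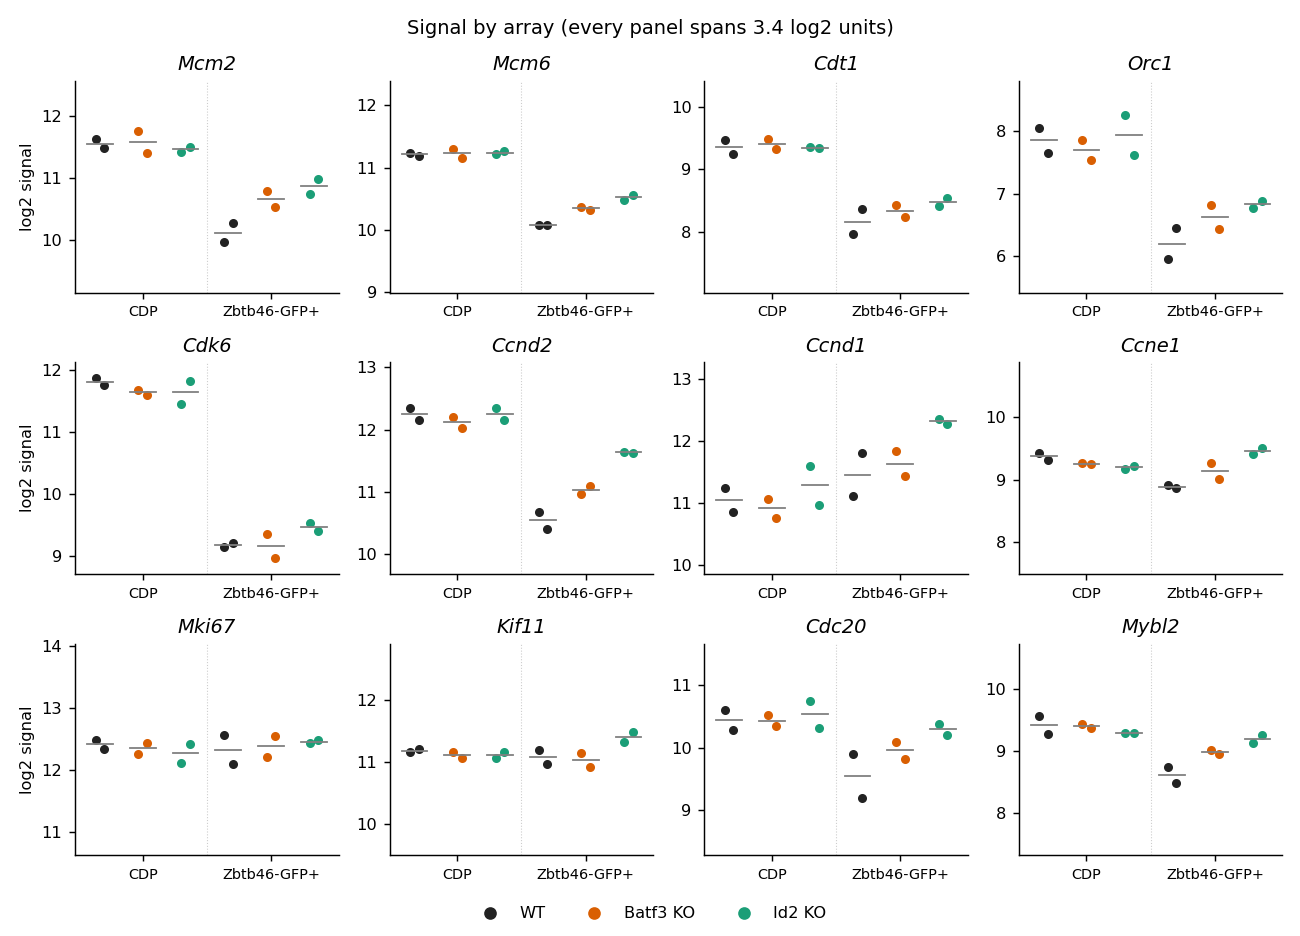
Log2 signal (vertical axis) on each of the 12 arrays for 12 genes of the replication, G1 and mitosis classes, by genotype (colour) and stage, with bars at group means and the same span of log2 units in every panel. Mcm2, Orc1, Cdk6 and Ccnd2 are lower on GFP+ arrays of each genotype, whereas Mki67 (12.10 to 12.56 over the 12 arrays) and Kif11 (10.92 to 11.48) overlap between the stages.

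Before the step, no difference between genotypes passed for these genes. In CDPs, 0 of 49 genes passed for Batf3 KO against WT and 0 for Id2 KO against WT in limma, with 0 at an unadjusted p under 0.05 in each. All log2 differences lay between -0.18 and 0.24. Of all genes, 0.0502% and 0.0251% passed, and 257 and 126 of 19938 had such an unadjusted p.

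In GFP+ cells, Id2 KO values were the higher ones for nearly all of the 49. Only Ccnd2 (1.09, SE 0.15, adjusted p = 0.00326) and Ccne1 (0.57, SE 0.12, adjusted p = 0.0473) passed, both higher, where 1.09% of all genes were higher and 0.717% lower. In the refit on the 9969 genes at or above the median mean signal, 2.43% were higher and 1.23% lower, with a median of 0.07. There 1 of the 2 calls was kept. Ccnd2 kept its call with each array left out, and Ccne1 lost it without any one of the 12 arrays (adjusted p 0.0526 to 0.339). Fitting all 15 arrays, with a term for those that stand apart, neither passed. The fitted difference was above 0 for 48 of 49 genes, E2f2 being the other (-0.49), and 34 had an unadjusted p under 0.05, against 46.4% and 9.29% of all genes. The median difference was 0.42 for replication genes, 0.44 for mitosis genes and -0.02 for all genes. With each array centred it was 0.32 and 0.33, with all genes at -0.13. The mitosis median was 0.24 without WT GFP+ replicate 3. Mcm2 (0.75, adjusted p = 0.0525), Mybl2 (0.58, 0.0764) and Pole (0.62, 0.078) came next to the threshold.

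Batf3 KO GFP+ cells lay between the WT and the Id2 KO in their class means. Of 49 genes, 0 passed against the WT in limma (5 at an unadjusted p under 0.05), where 0.336% of all genes were called and 4.45% had such an unadjusted p. The fitted difference was above 0 for 44 of 49, against 52% of all genes, with a median of 0.17, and the mitosis median of 0.13 became -0.05 without WT GFP+ replicate 3. Between Id2 KO and Batf3 KO GFP+ cells, 0 of 49 passed (9 at an unadjusted p under 0.05), where 0.592% of all genes were called and 5.43% had such an unadjusted p. These comparisons share arrays, so their values are not independent of one another.

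The difference in step between a knockout and the WT was tested as an interaction. For the Batf3 KO, 0 of 49 genes passed in limma (1 at an unadjusted p under 0.05), and for the Id2 KO 0 of 49 (8 at an unadjusted p under 0.05), where 0.0953% and 0.321% of all genes were called. For the Batf3 KO 383 of all 19938 genes had such an unadjusted p, and for the Id2 KO 4.81% of all genes did. The Id2 KO interaction was closest for Ccnd2 (1.09, adjusted p = 0.062), followed by Ccne1 (0.75, adjusted p = 0.164). Its median was 0.46 for replication genes and 0.39 for mitosis genes. Ccne1, Ccna2 and Top2a had GFP+ arrays wholly below CDP arrays in the WT and wholly above them in the Id2 KO, which is 3 of 49 (6.12%) against 0.938% of all genes. The pattern was not tested beyond the interaction.

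Signals of other cell types moved with some of these groups. The summed signal of 6 neutrophil markers (S100a8, S100a9, Elane, Ltf, Camp, Ngp) was 5224.2 to 10066.1 in WT CDPs, 4090.3 to 6867.2 in Batf3 KO CDPs and 6377.3 to 18222 in Id2 KO CDPs. It was 15323.5 to 17144.4 in WT GFP+ cells, 20529.4 to 28810.6 in Batf3 KO GFP+ cells and 38982.7 to 40518.2 in Id2 KO GFP+ cells. In the WT step 5 of the 6 were fitted above 0 and 1 fell (log2 change -2.02). All 6 were fitted higher in Id2 KO than WT cells, by 0.40 to 1.09 in CDPs, where 0 passed. In GFP+ cells they were higher by 0.86 to 2.32, and 1 passed: Elane, a protease of early granulocytes (2.32, limma adjusted p = 0.00469). Of 6 erythroid markers 3 were measured. Their summed signal was 816.8 to 981.9 in WT CDPs and 347.5 to 504.8 in WT GFP+ cells, 901.6 to 1064.1 and 416.4 to 589.3 in the Batf3 KO, and 883.7 to 978.3 and 1034.5 to 1049.3 in the Id2 KO. It was thus lower at the GFP+ stage in the WT and the Batf3 KO and not in the Id2 KO, but only 1 of the 3 genes fell. The other 2, Klf1 and Epor, had log2 changes of -0.03 to -0.01 in the WT step. In the Batf3 KO step theirs were 0.06 to 0.08. Tfrc, the transferrin receptor of many dividing cells, fell in the WT step (-1.41, adjusted p = 0.012) and the Batf3 KO step (-1.27, adjusted p = 0.0286), and was higher in Id2 KO than WT GFP+ cells (1.68, adjusted p = 0.0174), whereas Klf1 (-0.16) and Epor (-0.04) did not pass. The part of these markers in the differences above was not tested. Summed signals of T and NK markers (184.8 to 244.9) and megakaryocyte markers (105.1 to 138.6) were low in all groups. Those of B lineage markers were 732 to 1148.3 in CDPs, and 462 to 509.2, 595.6 to 596.5 and 608.9 to 726.4 in WT, Batf3 KO and Id2 KO GFP+ cells, lower than on the CDP arrays. Monocyte markers summed to 3278.7 to 4062.2 in CDPs and 4546.4 to 5690.4 in GFP+ cells. Their part was not tested either.

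The replicate 1 GFP+ arrays, 1 per genotype, gave little on these genes. The values of 25 of the 49 genes were identical on all 3 arrays, 15 of 21 replication genes (71.4%) and 3 of 17 mitosis genes (17.6%), against 57.2% of all genes. Mcm2, for one, was 5.998 on each. Among mitosis genes the Id2 KO array lay below the WT array for 12, above it for 2 and at it for 3, with a median of -0.17, the opposite direction to the 12 arrays, where 17.1% of all genes lay below and 20.4% above. The Batf3 KO array lay below the WT array for 9 mitosis genes, above it for 0 and at it for 8, with a median of -0.01, against 13.4% of all genes below and 11.7% above. Birc5 differed most on the Id2 KO array, at -1.63 from the WT array, and was at -0.42 on the Batf3 KO array. Ccnd2 and Ccne1 were tied.

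Other genes of the same processes were listed by function. Of 39 further replication genes measured, 25 (64.1%) fell and 1 rose in the WT step, where 6.38% of all genes fell and 4.71% rose. In the mean step 30 (76.9%) fell and 1 rose, with a median of -0.48, where 14.1% of all genes fell and 9.23% rose. Hells, a chromatin remodeller of replicating DNA (-1.12), Chaf1b, a subunit of the assembly factor that places histones on new DNA (-0.92), and Pole2, a subunit of polymerase epsilon (-0.90), fell most, and the gene that rose was the nuclease and helicase gene Dna2 (0.72). Of 49 further mitosis genes, 9 (18.4%) fell and 1 rose, with a median of -0.17, so the share that fell was near that of all genes. It was under the 27.4% of the refit on genes at or above the median mean signal. The kinetochore genes Zwilch (-0.63) and Cenpk (-0.60) and the spindle gene Hmmr (-0.46) fell most, and Racgap1, a regulator of cytokinesis, rose (0.25). In Id2 KO against WT GFP+ cells the medians of the 2 lists were 0.37 and 0.47.

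Genes that slow the cycle were mixed. Of 22 brakes measured, 6 (27.3%) rose and 1 fell (Wee1, the kinase that holds Cdk1 in check, -0.39) in the mean step, with a median of 0.10, against 9.23% of all genes higher and 14.1% lower. The antiproliferative gene Btg2 rose most (log2 change 1.57, SE 0.09, adjusted p = 8.49e-07), with Tob1 of the same family (0.72) and the Cdk4 and Cdk6 inhibitor gene Cdkn2d (0.67). Rb1, Btg1 and Cdkn1b also rose (0.57, 0.54 and 0.47). Btg2 was lower in Id2 KO than in WT GFP+ cells (-0.95, adjusted p = 0.0129). Of 16 other cell cycle drivers 9 fell and 0 rose, with a median of -0.39, led by E2f3 (-0.77) and by Ccnh (-0.70) and Mnat1 (-0.67), 2 subunits of the kinase that activates Cdks.

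**Figure D5:**
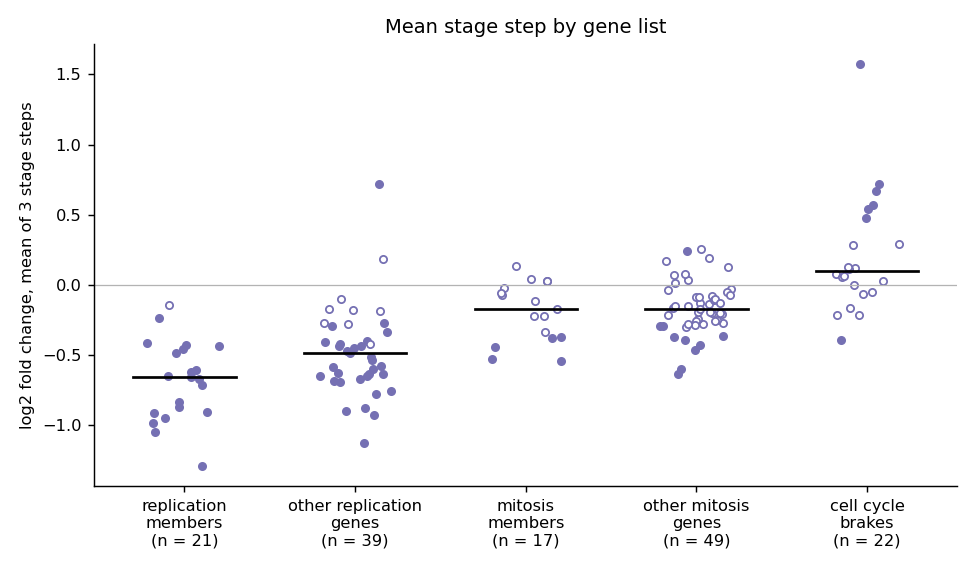
Log2 change from CDP to Zbtb46-GFP+ cells averaged over the 3 genotypes (vertical axis) for the genes of each class and list (horizontal axis), with 1 point per gene, filled where the adjusted p is under 0.05, and a bar at the median. Both replication sets are centred lower than both mitosis sets, at medians of -0.65 and -0.48 against -0.17 and -0.17, and the brakes lie around 0.10.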

How the data were processed

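The authors deposited linear intensity values, made by RMA in Affymetrix Expression Console per the submitters' processing notes, with versions and settings not given in the sources used here. RNA was labelled with the Affymetrix WT Pico kit, per the labels' protocols. Signals of 28853 probe sets were taken to log2. Of these, 21789 carried a single symbol in the platform annotation, 1621 several, and 5443 were not listed. The probe set with the highest mean represented each gene, which gave 19938 genes.

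The 12 arrays on one scale were fitted in limma 3.58.1 (R 4.3.3) with 6 group means and empirical Bayes without trend, 6 residual degrees of freedom, two-sided, and p-values were adjusted by Benjamini-Hochberg over the 19938 genes in each of 11 comparisons. The number of arrays limits the precision. The fit was tested on simulated data. Alternatives changed the scaling, arrays, blocks, filter, probe set rule and moderation. The 49 genes, the gene lists and the tests were chosen with earlier results of these data known. All 49 are named, and other lists by counts and at most 3 called genes. Genes named beyond this rule (Dna2, Racgap1, Wee1, Rb1, Btg1, Cdkn1b, Elane, Tfrc, Klf1, Epor) were chosen after their values were seen. RefSeq promoters of GRCm38.p6 were searched for the exact motif letters.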

Additional observations from a re-analysis of the deposited data

Results flagged for a closer look

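Top2a and Kif23 had arrays that moved in opposite directions between the knockouts. For Top2a the step was -0.32 in the Batf3 KO, with both GFP+ arrays below both CDP arrays, and 0.10 in the Id2 KO, with both above. For Kif23 the steps were -0.13 and 0.25. The difference between the steps of the 2 knockouts was not tested, and neither gene passed in either step (limma adjusted p 0.21 and 0.91 for Top2a, 0.769 and 0.413 for Kif23). With 2 arrays per group, a pattern of non-overlapping arrays is common: 23.3% of all genes lay below in the Batf3 KO and 20.3% above in the Id2 KO. No group held enough arrays for single arrays to be tested as outliers.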

How the results depend on the processing

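With no term for the 3 arrays on another scale, the 15-array fit called 0 replication genes in all 4 steps, 0 mitosis genes in the WT and mean steps and 0 genes in Id2 KO against WT GFP+ cells, and Ccnd1 reversed to -0.46 (Id2 KO) and -0.60 (mean). With such a term it called 10 replication genes in the Id2 KO step and 0 genes higher in Id2 KO GFP+ cells. Of all genes, 5.06% then fell in that step and 0.522% were higher in those cells. Centring called 1 mitosis gene in the WT and 1 gene in Id2 KO GFP+ cells. The mean of probe sets called 1 mitosis gene in the Batf3 KO. With the replicate block the counts were 1 mitosis gene in the WT and 13 replication and 0 mitosis genes in the mean step. The mitosis median there turned to 0.02. In Id2 KO GFP+ cells 6 genes were called. Of all genes, 3.63% fell in the WT and 5.53% in the mean step, and 1.84% were higher in Id2 KO GFP+ cells. Same-numbered arrays correlated in their residuals from 0.53 to 0.68 among CDPs, from -0.55 to 0.48 among GFP+ cells and from -0.63 to 0.54 across stages, so the numbers go together within CDPs but not over all 12 arrays. With the arrays of higher and lower 75th percentile as a block, 5 mitosis genes were called in the WT. The counts were 17 replication and 2 mitosis genes in the Batf3 KO and 12 replication genes in the Id2 KO. In Id2 KO GFP+ cells 15 genes were called. Of all genes, 14.6%, 9.99% and 8.57% then fell in the WT, Batf3 KO and Id2 KO. In Id2 KO GFP+ cells 4.1% were higher. With that block and centring together, chosen after seeing the data, the counts in the same order were 5, 1 mitosis gene in the Batf3 KO, 12 and 8. The shares of all genes were 10.4%, 7.42% and 8.16% lower, and 2.93% higher in Id2 KO GFP+ cells. The causes were not tested.

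Leaving out 1 array leaves a group with 1, assumed to vary like the others. Counts then ran from 10 to 17 (replication) and 1 to 5 (mitosis) in the WT, 5 to 13 and 0 to 0 in the Batf3 KO, 1 to 6 and 0 to 0 in the Id2 KO, 17 to 20 and 3 to 7 in the mean step, and 1 to 3 in Id2 KO GFP+ cells. Calls kept throughout were 15 of 25 in the WT, 7 of 15, 2 of 10, 26 of 31 in the mean step and 1 of 2 in Id2 KO GFP+ cells.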
